A study of Saccharomyces cerevisiae with 6 samples.

Results

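The 35 genes described here encode the ergosterol pathway of Saccharomyces cerevisiae, its electron donors, its transcriptional regulators, and proteins that esterify, bind or import sterols, together with the fatty acid desaturase gene OLE1. They were taken by name from a list, and no measured value enters the rule, though the list was drawn up with earlier results of these data known. All 35 were found among the 5539 genes of the array, each with 2 spots, and the 70 spots were averaged per gene and array. A met4 mutant, called a deletion in the series title and only a mutant in the sample labels, was hybridised against the wild type on each of 6 two-colour arrays, and both strains had spent 1 hour in 0.2 mM arsenite, As(III). The mutant was labelled with Cy3 and the wild type with Cy5 on every array, so a dye bias of a single gene cannot be told apart from the effect of the mutation. All arrays form 1 group of 6 replicates. The strain background, the number of mutant clones and the number of separate cultures are stated in no source used here. The p-values therefore set each mean ratio only against the spread between these arrays, and that spread may be technical. No unexposed cells were compared, so a difference present before arsenite cannot be told apart from one that arose in it.

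Ergosterol is the main sterol of fungal membranes and has the place that cholesterol has in animal cells. Its synthesis runs from acetyl-CoA through mevalonate and farnesyl diphosphate to squalene, then through lanosterol and zymosterol to ergosterol, and several of the later steps need molecular oxygen, haem or NADPH. One late step, the methylation of the sterol side chain by Erg6, uses S-adenosylmethionine, a product of the sulfur metabolism that Met4 activates. The zinc-cluster factors Upc2 and Ecm22 activate many of the pathway's genes when sterols are short. The sequences of the genes and of their promoters were not used here.

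Each array was centred on the median of all its spots and values are log2 ratios, so 0 is the typical gene of that array and 1 is a 2-fold ratio. The ratio is read as mutant over wild type, a direction that is taken as likely here and stated in no source used. The sample titles name the mutant first. MET4 was below 0 on 6 of 6 centred arrays, at -0.59 ± 0.25 (SD, n = 6). That is 1.51-fold lower (limma, adjusted p = 0.0112, and 0.600 as deposited), so a loss of the transcript is not shown by these spots, and the deleted part of the gene is not known here. The dye labels do not settle the direction, and a ratio of Cy5 over Cy3 would have the wild type as the numerator. If the wild type were the numerator, every "higher" and "lower" below would be exchanged. The log base is not stated either and is taken as 2. If the logarithms were natural, each unit would be 1.44 units on the log2 scale, with the same tests. Before centring the array medians ran from -0.95 to 0.92. Over all genes the arrays correlated with r from 0.0817 to 0.759 over 15 pairs, and array 2 stood furthest from the rest (mean r of 0.291). Arrays 3 and 5 were most alike (r = 0.759), followed by arrays 1 and 3 (0.622) and arrays 4 and 6 (0.609). Genes are not independent replicates, and these r values only describe the arrays.

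Most of the sterol genes lay close to the typical gene in the met4 mutant. ERG6, the sterol methyltransferase gene, fell by 0.62 ± 0.33 on the log2 scale and ARE2, which encodes an enzyme that esterifies sterols, rose by 0.71 ± 0.69. Under 15 alternative settings ERG6 kept its call in 14 and ARE2 in only 8. The other 33 of the 35 did not pass the threshold, among them the HMG-CoA reductase genes and ERG11. The test was limma's on the mean of the 6 arrays, with an adjusted p under 0.05 over all genes as the threshold. Of all genes tested, 15.1% passed, 9.41% as higher and 5.69% as lower, against 2 of 35 sterol genes (5.71%), 1 in each direction. With the ratio turned, the shares of higher and lower genes would be exchanged. The median of the 35 means was -0.0021, beside 0.0053 over all genes, and 17 means were above 0 and 18 below. At an unadjusted p under 0.05 there were 8 of 35 sterol genes, beside 1636 of 5539 genes (29.5%).

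The means ran from -0.62 (ERG6) to 0.71 (ARE2). Of the 35, 26 (74.3%) lay within 0.25 of 0, as did 59.6% of all genes. The 95% interval of the mean, taken from the same limma fit for each gene alone, lay wholly inside a 2-fold change in either direction for 34 of 35 genes, with ARE2 as the exception. Over all genes this held for 89.6%. With natural logarithms it would hold for 31 of the 35, and ERG6, ERG5 and UPC2 would join ARE2 outside it.

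**Figure D1:**
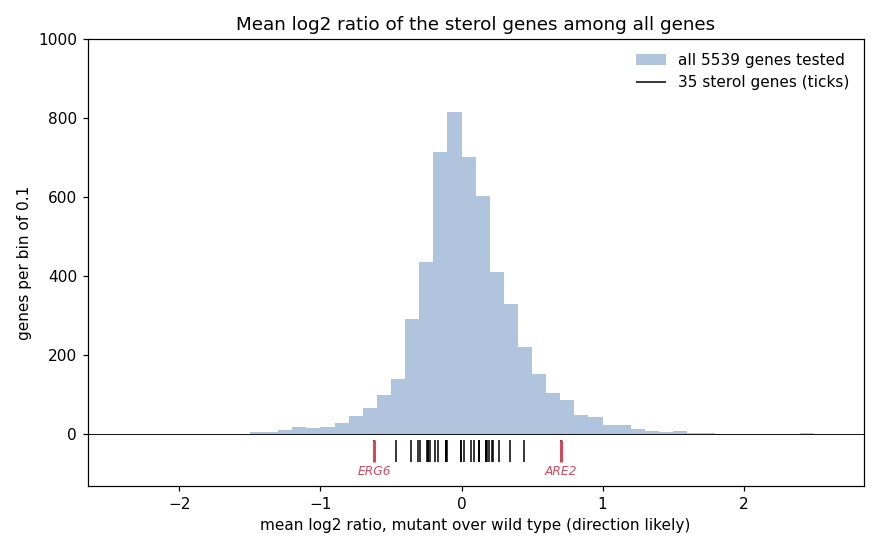
Histogram of the mean log2 ratio of all 5539 genes (x axis, bins of 0.1; y axis, genes per bin), with a tick below the axis for each of the 35 sterol genes and the 2 that passed the threshold in red. The sterol genes lie between -0.62 and 0.71 in the central part of a distribution that reaches from -2.27 to 2.45.

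The mevalonate section makes the isoprene units and farnesyl diphosphate. None of its 9 genes passed, while 2 had an unadjusted p under 0.05, and the median of the 9 means was 0.18. Over all genes 15.1% passed and 29.5% had an unadjusted p under 0.05. The counts of this and the following small sections are to be read beside these shares. ERG10, acetoacetyl-CoA thiolase, stood at 0.20 ± 0.35 and ERG13, HMG-CoA synthase, at 0.21 ± 0.39. Both had their lowest value on array 2, at -0.43 and -0.44. HMG1 and HMG2 encode the isoenzymes of HMG-CoA reductase, the main control point of the pathway. HMG1 stood at 0.07 ± 0.37, between -0.41 and 0.62. HMG2 was below 0 on all 6 arrays with a mean of -0.24 ± 0.30, but 5 of its values lay between -0.28 and -0.04 and the lowest, -0.82, came from array 3. The next enzymes differed in sign. ERG12, mevalonate kinase, was below 0 on 6 of 6 arrays, from -0.50 to -0.03 (mean -0.29 ± 0.16; limma, adjusted p = 0.127). ERG8, phosphomevalonate kinase, was above 0 on 6 of 6 arrays, from 0.04 to 0.55 (0.18 ± 0.19; limma, adjusted p = 0.382). MVD1, mevalonate diphosphate decarboxylase, had the highest mean of this section, 0.35 ± 0.35 (limma, adjusted p = 0.135), and was above 0 on all arrays but array 2. IDI1, isopentenyl diphosphate isomerase, stood at -0.11 ± 0.18 and ERG20, farnesyl diphosphate synthase, at 0.18 ± 0.27.

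Squalene synthase, squalene epoxidase and lanosterol synthase are encoded by ERG9, ERG1 and ERG7. None of these 3 passed, none had an unadjusted p under 0.05, and their means were 0.17 ± 0.29, 0.09 ± 0.37 and 0.02 ± 0.26. On array 5 all 3 were at their lowest, at -0.17, -0.54 and -0.46. On array 4 they stood at 0.57, 0.19 and 0.26.

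From lanosterol to zymosterol the methyl groups of the sterol nucleus are removed. None of the 7 genes of this section passed, 1 had an unadjusted p under 0.05, and their means ran from -0.36 to 0.22. ERG11, the cytochrome P450 that azole antifungals inhibit, had a mean of -0.0028 ± 0.52, made of values from -0.88 on array 5 to 0.49 on array 4, with 3 arrays on each side of 0. ERG24, the sterol reductase that follows, stood at 0.17 ± 0.42 and was high on array 3 alone, at 0.91. The sterol demethylation complex that acts next has 3 enzymes, and all had means below 0. ERG25, the methylsterol oxidase, stood at -0.17 ± 0.26, ERG26, the decarboxylating dehydrogenase, at -0.24 ± 0.26, and ERG27, the keto reductase, at -0.36 ± 0.38 (limma, adjusted p = 0.135). The scaffold gene of that complex, ERG28, stood at 0.12 ± 0.47, from -0.43 on array 6 to 0.85 on array 4. ERG29, whose product also acts in ergosterol synthesis, stood at 0.22 ± 0.25.

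The last section, zymosterol to ergosterol, held the 1 pathway enzyme that passed. Of its 5 genes 1 (20%) passed and 3 had an unadjusted p under 0.05. ERG6 was below 0 on all 6 arrays, with -0.92 as the lowest value, -0.73 as the median and -0.17 as the highest. Arrays 1, 2, 3 and 4 lay between -0.92 and -0.62, and arrays 5 and 6 were nearer to 0, at -0.17 and -0.25. The mean of -0.62 ± 0.33 (SD, n = 6) corresponds to a 1.53-fold lower level in the mutant (limma, adjusted p = 0.0131; p = 0.0312 by an exact permutation of the signs, two-sided, where 6 arrays can give no smaller value) and stood at the 3.94th percentile of all genes (the 96.1th with the ratio turned). The RNA of whole cultures was compared, so fewer cells with the transcript and less transcript per cell cannot be told apart. The call held without each array in turn (limma, adjusted p up to 0.0489) but not in the values as deposited, where the mean was -0.50 (limma, adjusted p = 0.561) and the median of all gene means was 0.12.

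ERG2, the sterol isomerase that acts after Erg6, was also below 0 on 6 of 6 arrays, from -0.41 to -0.11 with a median of -0.35. It varied little between arrays, and its mean of -0.31 ± 0.12 did not pass (limma, adjusted p = 0.0972), although it did with array weights (limma, adjusted p = 0.0460). ERG3, a sterol desaturase, stood at -0.10 ± 0.33, above 0 on arrays 1 and 2 and below it on the other 4. ERG5, the other desaturase of this section and a cytochrome P450, went the other way: its values ran from -0.25 on array 6 to 1.26 on array 2 with a median of 0.43, and 5 of 6 were above 0. Its mean of 0.45 ± 0.51 was the highest of the pathway enzymes and did not pass (limma, adjusted p = 0.110). ERG4, the final reductase, averaged -0.0021 ± 0.56 from values between -0.998 on array 4 and 0.55 on array 2.

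**Figure D2:**
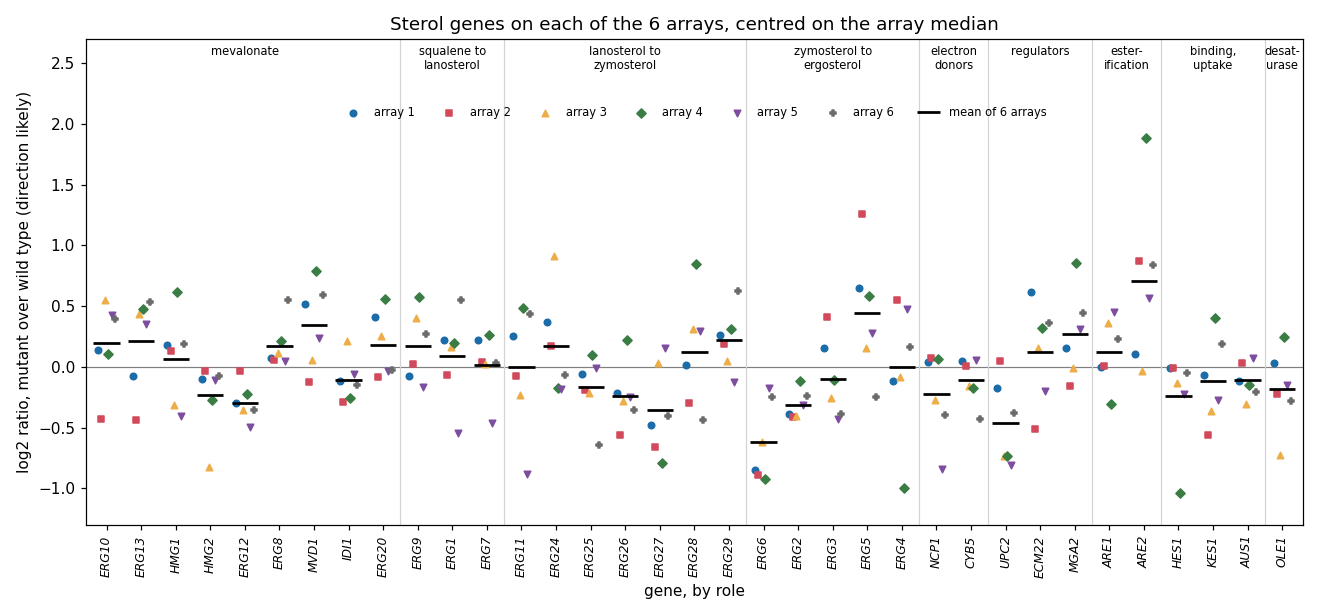
Log2 ratio (y axis) of each of the 35 sterol genes (x axis, grouped by role) on each of the 6 arrays (symbols), with the mean as a black bar. ERG6 lies below 0 on all arrays and ARE2 has its highest value, 1.89, on array 4, whereas most other genes have values on both sides of 0.

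Cytochrome P450 and desaturase steps draw electrons from NADPH and NADH through Ncp1 and cytochrome b5. NCP1, the P450 reductase gene, stood at -0.22 ± 0.36, with 3 arrays slightly above 0 and a low value of -0.84 on array 5. CYB5 stood at -0.11 ± 0.19, between -0.43 and 0.05. Neither passed, and neither had an unadjusted p under 0.05.

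Of the regulators, UPC2 had the lowest mean and lay at the threshold. Its values ran from -0.81 to 0.04 with a median of -0.56. Arrays 3, 4 and 5 stood between -0.81 and -0.73, arrays 1 and 6 at -0.17 and -0.38, and array 2 alone was above 0. The mean was -0.46 ± 0.35 (limma, adjusted p = 0.0504; p = 0.0625 by the exact sign permutation). Without array 2 UPC2 passed as lower, at -0.57 (limma, adjusted p = 0.0198), and it also passed with quantile normalization, array weights and robust empirical Bayes. UPC2 did not pass under the other 11 of 15 alternatives. With each print-order run of spots centred on its own median the adjusted p was 0.192 (limma). It was 0.251 with arrays 3 and 5 averaged and arrays 4 and 6 averaged, and 0.821 as deposited. Without array 1, 3, 4, 5 or 6 it lay between 0.0706 and 0.153. ECM22, the paralog of UPC2, stood at 0.12 ± 0.41. MGA2, the membrane-bound activator of OLE1, stood at 0.27 ± 0.36 with array 4 highest at 0.85, and it passed as higher only with centring by print-order run (limma, adjusted p = 0.0419). OLE1 itself, which encodes the fatty acid desaturase that makes oleic and palmitoleic acid, stood at -0.19 ± 0.33, and its lowest value, -0.73, came from array 3.

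Are1 and Are2 attach fatty acids to sterols, and the esters are stored in lipid droplets. ARE2, the gene of the main sterol acyltransferase in aerobic cells, had values from -0.04 to 1.89 with a median of 0.70. Arrays 1 and 3 stood near 0, at 0.10 and -0.04, arrays 2, 5 and 6 at 0.87, 0.57 and 0.84, and array 4 well above them. The mean of 0.71 ± 0.69 (SD, n = 6) corresponds to a 1.63-fold higher level in the mutant (limma, adjusted p = 0.0417; p = 0.0625 by the exact sign permutation). The call was lost without array 2, 4, 5 or 6 (limma, adjusted p from 0.0753 to 0.120), and the mean without array 4 was 0.47. It was also lost in the values as deposited (limma, adjusted p = 0.117), with array weights (0.0790) and with the alike arrays 3 and 5, and 4 and 6, averaged (0.101). ARE1 stood at 0.12 ± 0.28, from -0.31 on array 4 to 0.45 on array 5.

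**Figure D3:**
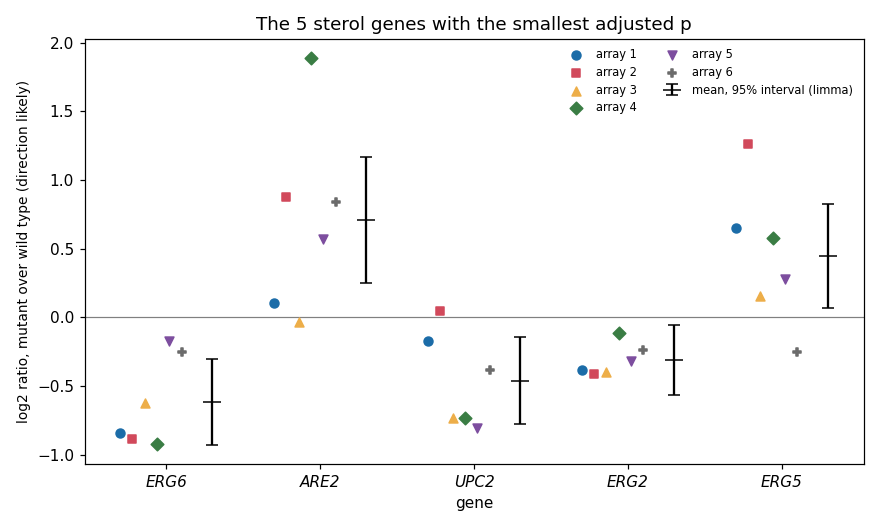
Log2 ratio (y axis) on each array (symbols) of the 5 sterol genes with the smallest adjusted p (x axis), with the mean and its 95% interval from limma in black. ERG6 and ERG2 are below 0 on every array, the mean of ARE2 is raised by 1.89 on array 4, and UPC2 and ERG5 each have 1 array on the other side of 0.

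The remaining members bind or import sterols. HES1 and KES1 encode oxysterol-binding proteins that carry sterols between membranes. HES1 stood at -0.24 ± 0.40 and was below 0 on all 6 arrays, but 5 of the values lay between -0.22 and -0.0084 and array 4 gave -1.04. KES1 stood at -0.11 ± 0.36. AUS1, a transporter that takes up sterol under anaerobic conditions, stood at -0.11 ± 0.14 and was the member with the smallest spread after ERG2. None of these 3 passed, and none had an unadjusted p under 0.05.

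Genes with the same role were compared within arrays, where the centring drops out, in 4 pairs. UPC2 was below ECM22 on 5 of 6 arrays, by 0.61 to 1.05, and above it by 0.56 on array 2. The mean difference was -0.59 ± 0.58 with a 95% interval from -1.195 to 0.02 (two-sided exact permutation of the signs, p = 0.0625, adjusted over the 4 pairs 0.208). ARE1 was below ARE2 on 5 of 6 arrays, with a mean difference of -0.58 ± 0.90 (interval -1.53 to 0.36; exact sign-flip p = 0.156, adjusted 0.208) that became -0.26 without array 4. HMG1 was above HMG2 on 5 of 6 arrays, by 0.30 ± 0.39 on average (interval -0.11 to 0.71; exact sign-flip p = 0.156, adjusted 0.208), and by 0.18 without array 4. HES1 was above KES1 on 4 of 6 arrays with a median difference of 0.05, while the mean was -0.13 ± 0.69 (interval -0.86 to 0.60; exact sign-flip p = 0.844) and turned to 0.13 without array 4. No pair passed, but 6 arrays allow no exact p below 0.0312, and a single differing pair among the 4 could not go below 0.125 after adjustment. The widths of the intervals do not show that the genes of a pair behaved alike. Paralogs can share signal on spotted arrays, and no probe sequence was used here.

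**Figure D4:**
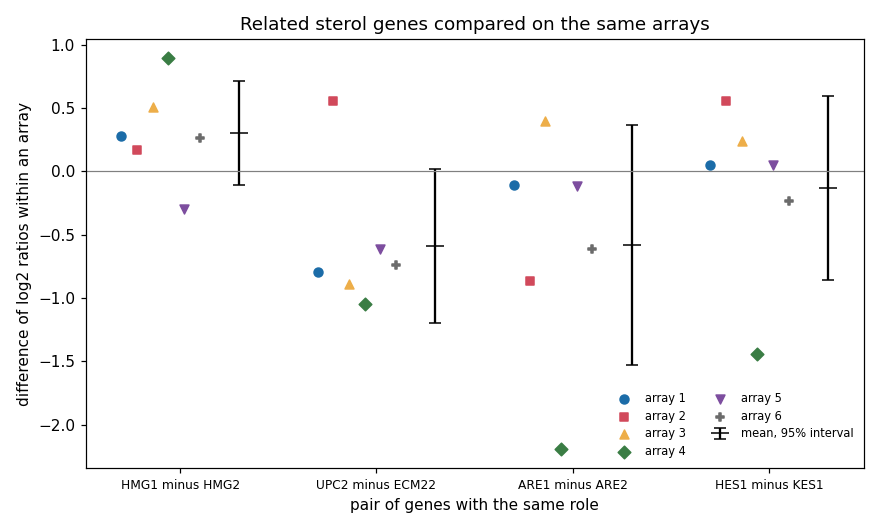
Difference of the log2 ratios of 2 genes with the same role (y axis) on each array (symbols) for the 4 pairs (x axis), with the mean and its 95% interval in black. All 4 intervals include 0, and UPC2 minus ECM22 comes nearest to leaving it, with array 2 alone above 0.

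The arrays did not contribute evenly to the spread of these genes. Array 4 gave the highest value of 14 of the 35 genes and the lowest of 5, and array 5 gave the lowest of 12. Array 2 gave the lowest of 10 and the highest of 8, whereas array 1 gave an extreme value for 1 gene. Array 1 also had the smallest SD across all genes, 0.42. These counts are not set beside the same counts for all genes. The SD across the 35 genes was 0.60 on array 4, beside 0.56 across all genes on that array, and lay between 0.30 and 0.41 on the other 5 arrays, where the SD across all genes was 0.42 to 0.67. The median gap between the 2 spots of a gene was below its SD between arrays for all 35 genes, and the median of these gaps was 0.07. The largest of 210 gaps was 0.61 (ARE1). In 5 genes (HMG1, ERG12, IDI1, ERG29 and ARE1) the largest gap was over 0.5 of the range between arrays, so spot differences are not small beside the array differences there. For ERG6 and ARE2 the largest gap was 0.11 on any array.

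Around the pathway, lists of related genes were counted in the same fit, to be read beside the 15.1% of all genes that passed (9.41% higher, 5.69% lower). The lists are short and were drawn up with earlier results of these data known. Their shares here and below are therefore descriptions and no independent support. Of 14 other sterol carriers and uptake genes, 3 (21.4%) passed and all rose: OSH2, an oxysterol-binding protein gene (1.01 ± 0.49; limma, adjusted p = 0.00260), PRY1, whose product binds and exports sterols (0.92 ± 0.49), and PDR16, a phosphatidylinositol transfer protein gene (0.66 ± 0.61). The list median was 0.23. OSH2 and PRY1 kept their calls without each array in turn, and PDR16 lost its call without any 1 array other than array 2. Of 9 genes for steryl ester hydrolysis and lipid droplets 1 (11.1%) rose, PLN1, a lipid droplet protein gene, from 0.78 to 1.71 over the arrays with a mean of 1.11 ± 0.38 (limma, adjusted p = 0.000696; list median 0.10).

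Of 11 genes for the turnover of HMG-CoA reductase and other sterol enzymes, 3 (27.3%) rose and none fell, beside 9.41% of all genes higher (list median 0.02). They were SSM4, which encodes the Doa10 ubiquitin ligase that degrades squalene epoxidase (0.92 ± 0.40; limma, adjusted p = 0.00260), NSG2, a regulator of Hmg2 stability (0.75 ± 0.29), and DER1, a component of protein degradation at the endoplasmic reticulum (0.52 ± 0.40). DER1 lost its call without any 1 array, and NSG2 and DER1 were not called as deposited. Of 14 haem synthesis genes and oxygen or haem regulators 2 fell and 1 rose, together 21.4% beside 15.1% of all genes (list median 0.05). HEM14, protoporphyrinogen oxidase, was below 0 on 6 of 6 arrays, from -1.33 to -0.67, and fell by 1.02 ± 0.23 on the log2 scale (limma, adjusted p = 0.000467, and 0.0685 as deposited). HMX1, the haem oxygenase gene, rose by 0.99 ± 0.42. HEM13, coproporphyrinogen oxidase, fell by 0.43 ± 0.23, a call that was lost without any 1 array other than array 1.

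No gene passed among 13 of other isoprenoid branches, 10 anaerobic cell wall and hypoxic genes and 14 sphingolipid synthesis genes, with 1, 2 and 3 genes at an unadjusted p under 0.05. The smallest adjusted p in each belonged to COQ2 (0.32 ± 0.15), CYC7 (0.54 ± 0.70) and LCB2 (-0.32 ± 0.26). CYC7 passed as higher without array 2, and LCB2 as lower with centring by print-order run. Of 12 genes for fatty acid synthesis and elongation 1 (8.33%) rose, the acyl-CoA synthetase gene FAA1 (0.73 ± 0.43). Of 9 pleiotropic drug resistance genes 3 (33.3%) rose, beside 9.41% of all genes: PDR1, the activator (0.97 ± 0.33; limma, adjusted p = 0.00127), YOR1 (0.89 ± 0.94) and SNQ2 (0.53 ± 0.37), both of which encode export pumps. YOR1 stood between 1.25 and 1.93 on arrays 1, 2 and 3 and between -0.38 and 0.52 on the others, and it lost its call without any 1 array other than array 4. SNQ2 lost its call without array 1, 3, 5 or 6. In the values as deposited PDR16, HEM13, FAA1 and SNQ2 were not called either, and centring by print-order run ended the calls of PDR16, DER1 and YOR1. With arrays 3 and 5 averaged and arrays 4 and 6 averaged, PDR16, DER1, HEM13, FAA1 and SNQ2 missed the threshold (limma, adjusted p from 0.0792 to 0.218), and YOR1 missed it with robust empirical Bayes (limma, adjusted p = 0.0577).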

How the data were processed

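Total RNA of the met4 mutant and of the wild type was compared on 6 two-colour arrays. The authors deposited 1 log ratio of the channels per spot (13056 spots), taken here as log2 because the base is not stated. No source used here states the background correction, normalization or image software, and no intensities were used, so dim spots could not be marked. Columns were matched to samples by accession, and 0 columns were left unmatched. Spots were named through the platform annotation, and 11138 spots carry a gene symbol. Exact zeros were set to missing, each array was centred on its median, and the spots of a gene were averaged. A value on at least 4 arrays was required, which removed 0 genes.

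The limma 3.58.1 package in R 4.3.3 fitted an intercept per gene with empirical Bayes (lmFit, eBayes), and p-values were adjusted by Benjamini-Hochberg over all genes at 0.05. Pairs and single genes were also tested by exact sign-flip permutation over 64 patterns. On simulated log ratios of 5539 genes for this comparison, changes of 0.5, 1 and 2 on the log2 scale were recovered in 44.8%, 97.0% and 100% of cases, with 10 false among 171 calls. The noise was drawn independently between arrays and genes, which is not known to hold for the real arrays. These rates therefore describe the simulation only. Members, lists and tests were chosen with earlier results of these data known. All members are named. From each other list up to 3 genes past the threshold with the largest mean in size are named, or the 1 with the smallest adjusted p. Alternatives changed the centring, the scaling, the treatment of zeros and spots, the empirical Bayes prior, the array weights and the arrays used. Promoter motifs were planned and not searched, as no promoter sequences were used here. Figures were drawn with matplotlib 3.10.9.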

Additional observations from a re-analysis of the deposited data

Results flagged for a closer look

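An array was flagged if its gap to the nearest exceeded 0.625 of the gene's range, which chance meets in about 1 in 20 groups. Of the 53 genes named, 6 had 1 array this far from the other 5. They were HMG2 on array 3 (-0.82, next value -0.28), ERG8 on array 6 (0.55, next 0.21), ERG7 on array 5 (-0.46, next 0.02), HES1 on array 4 (-1.04, next -0.22), SSM4 on array 2 (0.14, next 0.88) and DER1 on array 6 (1.295, next 0.52). The 6 values came from 5 different arrays.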

How the results depend on the processing

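Each array already pairs the mutant with the wild type, so all tests used within-array ratios. All arrays form 1 group, so no comparison between groups of arrays was possible. Of the sterol genes 1 was called higher and 1 lower. In the values as deposited these counts were 0 and 0 (limma, 1 gene at an unadjusted p under 0.05), and over all genes 187 higher and 59 lower in place of 521 and 315. With arrays 3 and 5 averaged and arrays 4 and 6 averaged, no sterol gene was higher (0), and over all genes 203 were higher and 163 lower. Centring by print-order run gave 2 higher sterol genes, quantile normalization and robust empirical Bayes each gave 2 lower, and array weights gave 0 higher and 3 lower (ERG6, ERG2 and UPC2). Leaving out 1 array gave 0 to 1 higher and 1 to 2 lower sterol genes, and 291 to 663 higher and 165 to 302 lower genes over the whole array. The cause of these shifts was not tested. ERG6 was called under 14 of 15 alternatives and ARE2 under 8. No named gene that was called under any setting changed sign there. The number of arrays limits the precision, and signal over background is not known here.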
